A study of Coregonus migratorius and Coregonus peled with 8 samples.

Results

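Peled (Coregonus peled) larvae from nature were set against peled larvae reared in aquaculture, to describe how gene expression differed with the origin of the fish. The comparison uses the 4 peled libraries of a series of 8, the other 4 being Baikal omul (Coregonus migratorius) in the same states. They were chosen by species label, and each library is RNA of whole larvae, extracted larva by larva and pooled over 12 to 16 larvae. Nature peled were unheated controls, and according to the series' design text the larvae called natural were taken from hatchery ponds near the Belaya River. The aquaculture-reared peled had spent 1.5 months at 9 to 12 °C and comprised an unheated control, acute stress with fast warming to 21 °C for 1 h, and chronic stress with 24 h at 21 °C, 3 times a week. Every group is 1 pool, so no state has a replicate, and no source used here gives the age or the water temperature of the nature larvae. Origin, age and temperature therefore cannot be told apart. In RNA of whole larvae, fewer cells of a type and less RNA per cell also cannot be told apart.

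Peled and omul are whitefishes, salmonid relatives that live in cold fresh water and feed largely on plankton. Peled is a lake and river fish of northern Eurasia that is widely farmed and stocked, and the omul is the whitefish of Lake Baikal. In young fish, diet, growth and temperature are known to alter expression in muscle, gut and liver, and a library of whole larvae sums over all these tissues. The features measured are assembled transcripts grouped into genes by Trinity, a de novo assembler. They carry assembly identifiers with no gene names, so neither the larval tissue nor any pathway could be checked against markers, and genes are described here by identifier, level and pattern.

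The files list 2184 genes with a normalised expression value each. Over the 8 libraries the summed value ran from 79169 to 228369, both extremes being peled, acute stress and nature. The median value ran from 8.70 to 10.9, and sequencing depth is unknown. Before any difference is read, the position of the nature peled library among the others has to be given, because it lay closer to the omul libraries than to the other peled libraries. Across the listed genes on the log2(value + 1) scale, its Spearman correlation was 0.89 with nature omul, 0.49 to 0.52 with the 3 aquaculture-reared omul libraries and 0.04 to 0.16 with the 3 aquaculture-reared peled libraries. The median absolute log2 difference of a gene from nature peled was 0.57 in nature omul, 1.25 to 1.34 in aquaculture-reared omul and 2.03 to 2.37 in aquaculture-reared peled. The 3 aquaculture-reared peled libraries lay 0.41 to 0.62 from each other by the same measure. These are descriptions across genes, which are not independent replicates, over a list whose selection rule is not stated. The library goes by its label, nature peled, throughout. All results below rest on it and cannot be given without it.

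Genes that separate the species in aquaculture were used to look at the label without the nature libraries having a part in the choice. In 40 genes all 3 aquaculture-reared peled libraries were at a value of at least 10 and all 3 aquaculture-reared omul libraries below 1. The median over these 40 genes was 20.6, 26.1 and 20.8 in control, acute and chronic peled, but 2.19 in nature peled and 4.66 in nature omul. Nature peled was below 1 in 6 of them and at least 10 in 3. In 20 genes the pattern was the reverse, silent in aquaculture-reared peled and at least 10 in aquaculture-reared omul. Nature peled had a median of 4.78 over these 20 genes, with 0 below 1 and 7 at 10 or more, beside medians of 0.09 to 0.64 in its aquaculture-reared conspecifics and 8.13 in nature omul. The medians of nature peled thus lay between those of the aquaculture-reared species on both lists. Gene by gene on the log2 scale, nature peled was nearer to the aquaculture-reared omul mean than to the peled mean in 35 of the 40 genes. Nature omul was so in 18 of them. On the list of 20 genes these counts were 8 for nature peled and 13 for nature omul. The lists were chosen for extreme aquaculture values, which in part sets less extreme values elsewhere. A mislabelled, mixed or hybrid pool was not tested.

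By the rule used here, a gene differed when nature peled lay at least 1 log2 unit, a 2-fold step on log2(value + 1), above or below all 3 aquaculture-reared peled libraries. Of the 2184 listed genes 1513 differed, 69.3%. There were 880 higher in nature (40.3%) and 633 lower (29.0%). A further 177 genes lay above all 3 libraries and 285 below all 3 by less than 1, and 209 genes (9.57%) fell inside the range of the aquaculture-reared libraries. At a distance of at least 2 log2 units from the nearest aquaculture-reared library there were 526 higher and 320 lower genes, at 4 units 45 and 21, and at 6 units 8 and 2. The median distance was 2.20 in the higher genes and 2.01 in the lower ones. The last gene inside on the higher side was at 28.7 in nature and at 4.29, 13.6 and 2.85 in control, acute and chronic peled. The first gene outside was at 34.2 in nature and at 14.96, 15.4 and 16.7. On the lower side the last gene inside was at 1.65 in nature and at 4.32, 83.99 and 12.2, and the first outside was at 3.75 and at 8.53, 24.4 and 8.48.

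**Figure D1:**
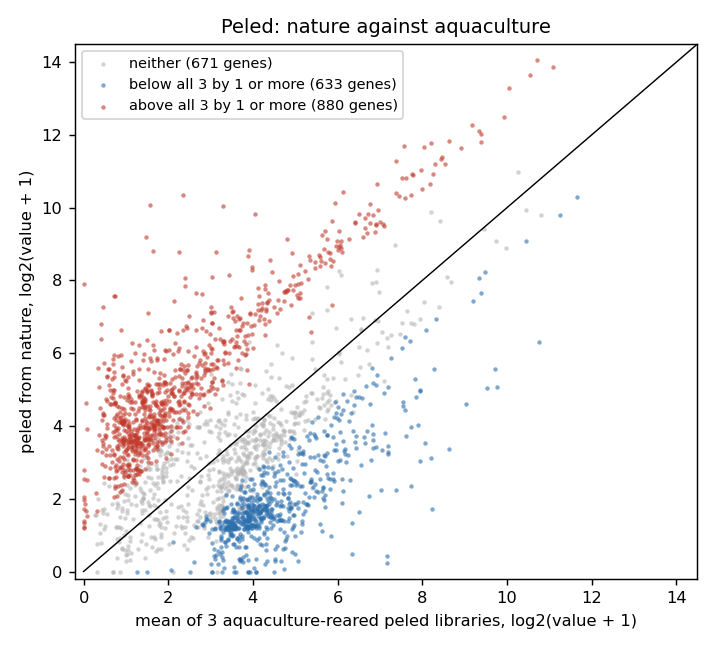
Each point is a listed gene, with its mean log2(value + 1) over the 3 aquaculture-reared peled libraries on the horizontal axis and its log2(value + 1) in nature peled on the vertical axis. The rule places the 880 higher and 633 lower genes on either side of the line of equal level. The most abundant genes of nature peled are among the higher ones.

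The genes farthest from the aquaculture-reared libraries were close to silent on the other side. Those named here were picked by this distance among genes called in the limma fit described below. A small p-value was thus fixed by the choice, and only effect sizes are given. TRINITY_DN7205_c1_g2 was at 1083 in nature peled and at 1.84, 1.75 and 2.27 in control, acute and chronic peled. The 3 aquaculture-reared values were alike and the nature value stood far above them, a difference from their mean of 8.52 log2 units. In omul the same gene was at 924 in nature and at 1301, 1129.9 and 1183 in control, acute and chronic libraries, so the level of nature peled was that of all 4 omul libraries. TRINITY_DN46766_c0_g4 had a value of 237 in nature peled, and each aquaculture-reared peled library listed it at 0. Its omul values were 3.52 in nature, 1.29 in the control and 0 in both heated libraries, so nature peled stood apart from all 7 other libraries. Its difference of 7.90 on the log2(value + 1) scale is set by the pseudocount, the distance being 5.60 with a pseudocount of 5 and 11.2 with 0.1.

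On the lower side, TRINITY_DN25631_c0_g1 was at 0.173 in nature peled and at 103, 147 and 188 in control, acute and chronic peled, a difference of -6.93. With nature near 0 this size too is set by the pseudocount, nature minus the nearest aquaculture-reared library being -6.48 with a pseudocount of 1, -8.57 with 0.1 and -4.39 with 5. All 4 omul libraries were also low, at 5.31 in nature and 0.677, 1.42 and 1.65 in aquaculture. TRINITY_DN61381_c0_g1 was at 2.30 in nature peled and at 224, 254 and 460.2 in the aquaculture-reared libraries, a difference of -6.50. Its omul values were 13.8 in nature and 2.79, 4.12 and 8.39 in aquaculture. For both lower genes the aquaculture-reared peled libraries were the only high ones among the 8.

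**Figure D2:**
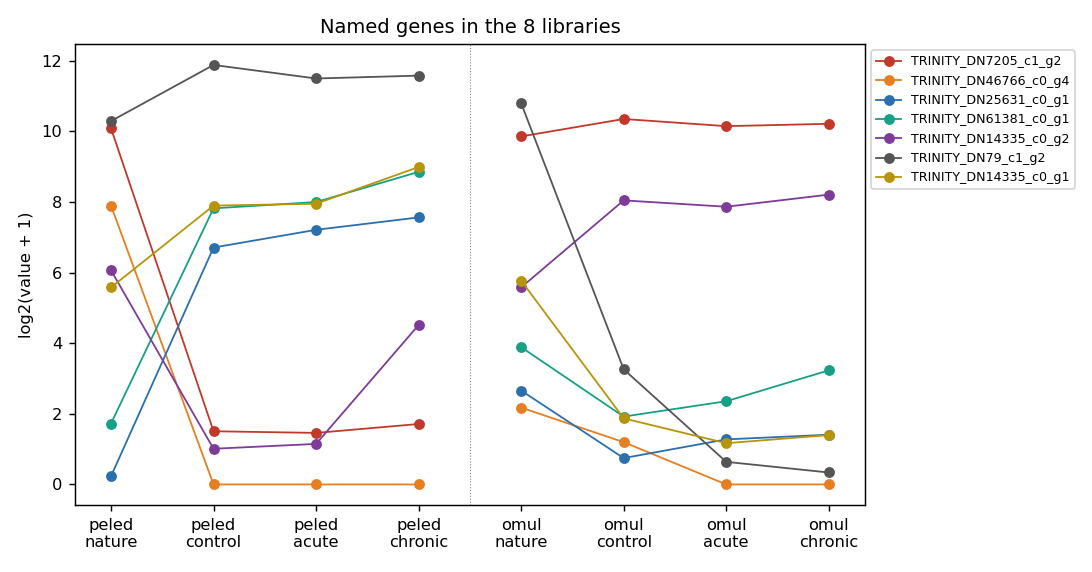
Log2(value + 1) of the 7 named genes (vertical axis) in each of the 8 single-pool libraries (horizontal axis, peled left and omul right), with thin lines joining the values of a gene within a species as a guide to the eye. TRINITY_DN7205_c1_g2 is near 2 on the value scale in the 3 aquaculture-reared peled libraries and between 924 and 1301 in the omul libraries, with nature peled at 1083.

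A test was possible if the 3 aquaculture-reared libraries of a species, which differ in heat treatment, stand in for replicates. In that fit the lone nature library is assumed to vary like them, and p-values measure the spread over heat states of single pools. The spread of a gene is pooled over the aquaculture-reared libraries of both species, so it is not that of peled alone. Nature peled was higher than the mean of aquaculture-reared peled in 874 genes (40.0%) and lower in 615 (28.2%) at a limma adjusted p below 0.05. The test uses the same peled values as the rule, so their overlap is given as a count and not as support, with 855 of the 880 higher genes called by limma, 597 of the 633 lower genes called, and 37 called genes outside the rule. With the 4 peled libraries fitted alone, with 2 residual degrees of freedom, 792 genes were higher and 537 lower. Over all listed genes the median difference was 0.31 log2 units toward nature, a shift that scaling the libraries to a common median reduced to 0.18, with 843 higher and 668 lower genes by the rule.

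The distance of nature was set beside the spread of the aquaculture-reared pools. From the lowest to the highest of the 3, a gene spanned a median of 0.91 log2 units, and 1215 genes (55.6%) spanned less than 1. Over all 2184 genes, nature lay outside the range of the 3 by more than that range in 1479 (67.7%). The counts were similar against each aquaculture-reared library. Nature was at least 1 log2 unit higher in 988 genes against the control (45.2%), in 992 against acute (45.4%) and in 964 against chronic stress (44.1%), and lower in 799 (36.6%), 811 (37.1%) and 735 (33.7%). These comparisons share the nature library. The chronic library was the nearest of the 3 to nature in 451 of the 880 higher genes (51.3%), the control in 244 and the acute library in 185. Among the 633 lower genes the chronic library was nearest in 267 (42.2%), the control in 205 and the acute library in 161. The nearest library was not counted over all listed genes, so these shares are not read as a trait of the differing genes. By median absolute log2 difference the chronic library lay 0.62 from the control and 0.60 from acute, which lay 0.41 from each other.

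The higher genes included the most abundant transcripts of nature peled. All of its 10 highest genes and 88 of its 100 highest were higher than in each aquaculture-reared peled library, and 3 of the 100 were lower. Ranking by the nature value favours genes higher there, the share over all listed genes being 40.3%. Of the 100 genes with the highest mean in aquaculture-reared peled, 34 were higher in nature and 39 lower. Together the 880 genes held 88.5% of the summed value in nature peled, but 25.8% in the control, 19.03% in acute and 42.2% in chronic peled. In omul the same 880 genes held 77.8% in nature and 81.2% to 84.9% in aquaculture. The 10 highest genes of nature peled summed to 81525 there and to 9494, 5693 and 20667 in control, acute and chronic peled. They summed to 48522 in nature omul and to 33545 to 41331 in aquaculture-reared omul. Without the 880 genes, the summed value was 26361 in nature peled and 60032 to 64103 in aquaculture-reared peled, so the larger total of nature peled lay in these genes. The 633 lower genes held 3.10% of the sum in nature peled and 35.2% to 50.4% in the aquaculture-reared libraries. The rule chose both lists by the peled values, so these peled shares and sums are in part fixed by that choice. What part the abundant genes had in the values of the others, through the authors' scaling, was not tested.

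Most of the higher genes were low rather than silent in aquaculture. Their median value was 26.1 in nature peled and 2.45, 2.32 and 2.63 in control, acute and chronic peled. About as many were below 1 in each aquaculture-reared library, 186 in the control, 178 in acute and 160 in chronic peled, and 46 were below 1 in all 3. The 633 lower genes had a median of 2.21 in nature peled and 18.4, 20.5 and 17.7 in control, acute and chronic peled. Nature peled was below 1 in 94 of these and listed at 0 in 14.

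The omul libraries, which the rule did not use, were read at the same genes. In the 880 higher genes the omul medians were 18.9 in nature and 17.8, 17.2 and 16.4 in control, acute and chronic libraries, all near the 26.1 of nature peled and far from the 2.32 to 2.63 of aquaculture-reared peled. In the 633 lower genes the omul medians were 4.67 in nature and 4.43, 4.06 and 3.83 in aquaculture, on the side of nature peled. Gene by gene, all 3 aquaculture-reared omul libraries lay on the nature side of the midpoint between nature and mean aquaculture-reared peled in 562 higher genes (63.9%) and 351 lower genes (55.5%). None of the 3 did so in 140 higher (15.9%) and 170 lower genes (26.9%). Nature omul lay on that side in 843 higher (95.8%) and 518 lower genes (81.8%). The lists were chosen for aquaculture-reared peled values far from nature, which in part sets other libraries on the nature side. No share on that side was taken over all listed genes, so these counts are descriptions and not support.

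**Figure D3:**
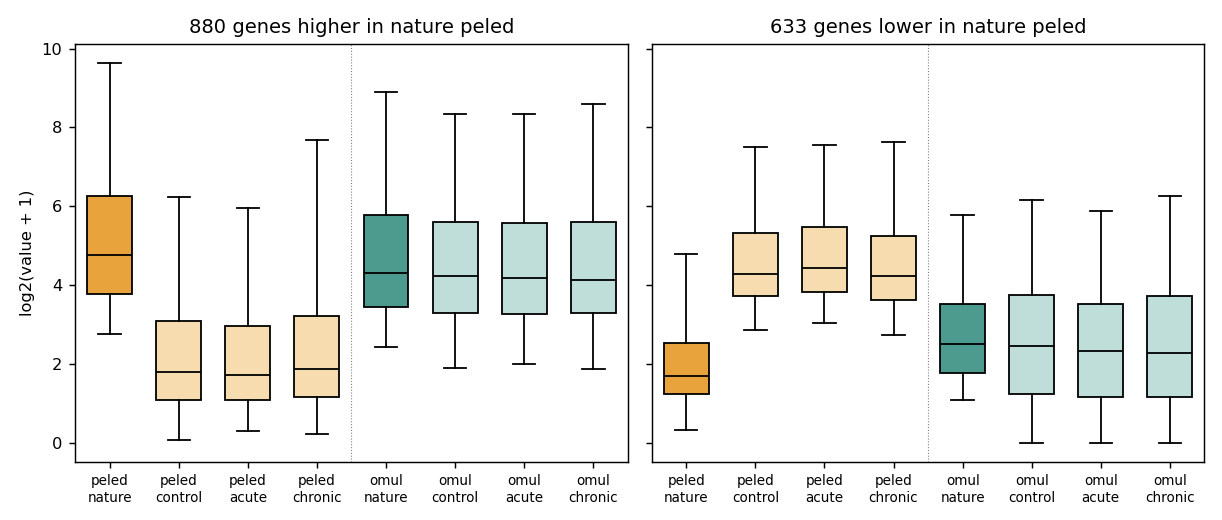
Boxes show the quartiles and median of log2(value + 1) over the genes higher (left, 880) and lower (right, 633) in nature peled, with whiskers from the 5th to the 95th percentile, in each of the 8 libraries on the horizontal axis. At the higher genes the 3 aquaculture-reared peled libraries are the low ones and at the lower genes the high ones, with the 4 omul libraries on the side of nature peled.

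The same was read from genes on which the aquaculture-reared species did not overlap. In 1204 genes all 3 aquaculture-reared peled libraries were at least 1 log2 unit above or below all 3 of omul. Of the 849 of these that differed by the rule, 840 lay toward the omul level and 9 away from it. Since the rule and the separation use the same aquaculture-reared peled libraries, this direction is in part fixed by the choice. Taking the aquaculture-reared peled mean as 0 and the omul mean as 1 on the log2 scale, nature peled had a median position of 0.96 in the 619 genes higher in omul and 0.51 in the 585 genes higher in peled. Nature omul had median positions of 0.88 and 0.35 in the same genes. Nature peled fell between the means of both species in 761 of the 1204 genes (63.2%) and nature omul in 880 (73.1%). In the rest, nature peled lay at or beyond the omul mean in 375 and the peled mean in 68. For nature omul these counts were 236 and 88. Nature omul differed from its own aquaculture-reared libraries by the same rule in 479 of the 1204 genes, and in 470 of them it lay toward the peled level. This direction too is in part fixed by the choice, since the separation uses the same aquaculture-reared omul libraries.

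**Figure D4:**
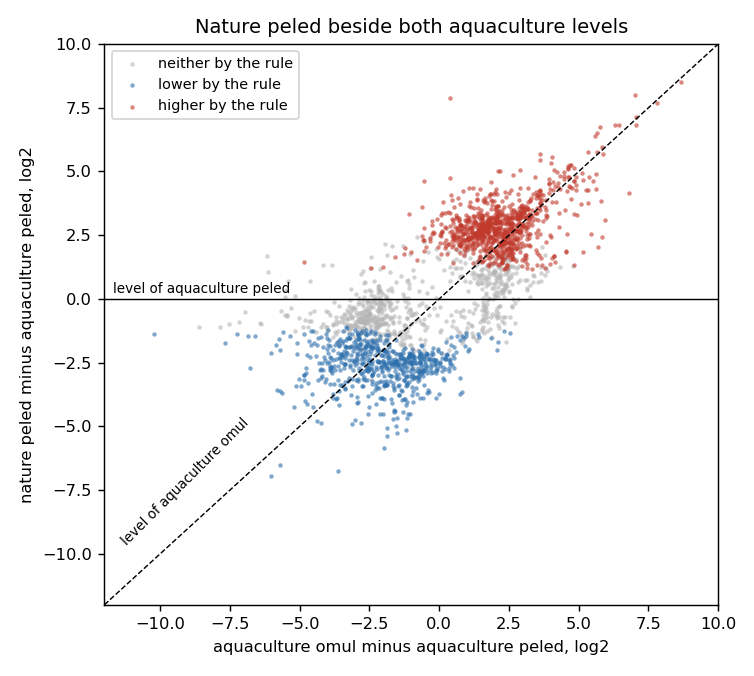
For each listed gene, the horizontal axis gives mean aquaculture omul minus mean aquaculture peled and the vertical axis nature peled minus mean aquaculture peled, both in log2 units of value + 1. Genes on the solid line have the level of aquaculture peled and genes on the dashed line that of aquaculture omul, and over the 880 higher genes aquaculture omul minus nature peled had a median of -0.65.

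Genes without such a separation of the species also differed. Of 980 genes, 664 (67.8%) met the rule, close to the 70.5% of the separated genes, with 372 higher and 292 lower in nature peled. In these 372 genes the median value was 31.8 in nature peled, 4.75, 3.55 and 4.81 in control, acute and chronic peled, 21.2 in nature omul and 11.1 to 12.8 in aquaculture-reared omul. Nature omul was also higher by the rule in 90 of the 372 (24.2%), against 148 of the 980 (15.1%). In the 292 lower genes the median was 1.86 in nature peled, 17.6, 21.2 and 16.1 in control, acute and chronic peled, 4.39 in nature omul and 9.41 to 10.8 in aquaculture-reared omul. Nature omul was also lower in 105 of the 292 (36.0%), against 135 of the 980 (13.8%). The 980 genes were chosen for aquaculture-reared species that were not apart, and the nature libraries were alike. A shared direction is thus in part fixed by the choice, and these shares are not support. Over the whole peled lists the omul shares were 11.5% of the higher genes, against 24.6% of all genes, and 17.4% of the lower genes, against 10.3%.

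The nature difference of peled was then compared with that of omul, which shares no library with it. By the same rule nature omul differed in 762 genes (34.9%), with 537 higher (24.6%) and 225 lower (10.3%). The median absolute difference of nature from the mean of the aquaculture-reared libraries was 2.25 log2 units in peled and 0.98 in omul, and it was larger in peled in 1559 genes (71.4%). In limma's test of the difference between the species, 1307 genes (59.8%) had an adjusted p below 0.05. The nature difference was more positive in peled in 650 (29.8%) and more negative in 657 (30.1%). The test called 599 of the 880 higher genes (68.1%) and 421 of the 633 lower genes (66.5%). It includes the peled values that the rule used, which favours calls in these lists, so these shares are not support. The contrast is also the gap between the species in nature minus their gap in aquaculture, and a call does not tell which gap it rests on. By median absolute log2 difference, peled and omul lay 0.57 apart in nature and 2.03 to 2.36 apart in aquaculture. The aquaculture range takes in pairs of unlike heat states, and pairs of the same state lay 2.06 to 2.28 apart. Across genes the differences of peled and omul correlated at r = 0.005 (Spearman 0.06). At the 880 higher genes the omul difference had a median of 0.19 and was positive in 58.9%, and over all listed genes it had a median of 0.24 and was positive in 56.9%. At the 633 lower genes its median was -0.01 and it was negative in 50.2%, against 43.1% of all listed genes.

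**Figure D5:**
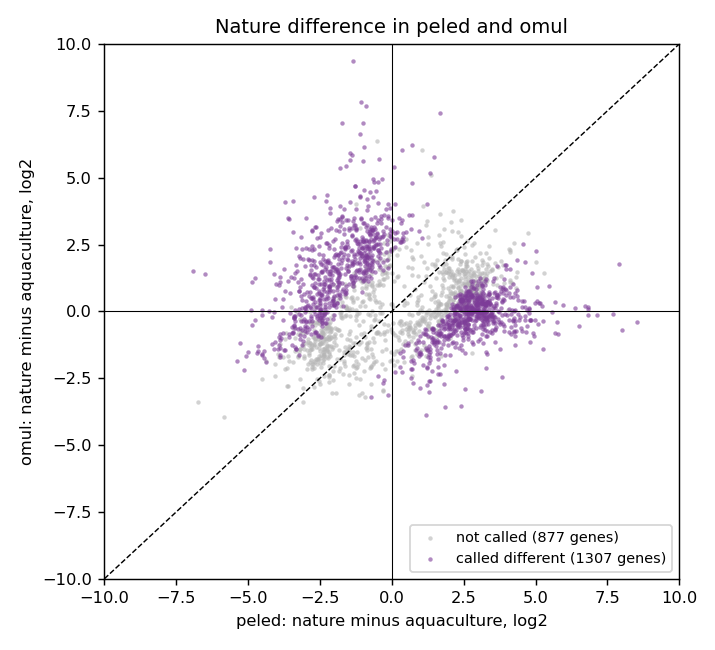
Each point is a listed gene, with nature minus mean aquaculture in peled (horizontal axis) and in omul (vertical axis), in log2 units of value + 1, and with the 1307 genes whose differences were called unequal by limma in purple. The dashed line marks equal difference, and across genes the differences of peled and omul correlated at r = 0.005 (Spearman 0.06).

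Sets shared by the species were read against the shares over all genes. By the rule 101 genes were higher in nature in both, which is 11.5% of the peled list, where 24.6% of all genes were higher in omul, and 18.8% of the omul list, where 40.3% of all genes were higher in peled. Lower in both were 110 genes, which is 17.4% of the peled list, where 10.3% of all genes were lower in omul, and 48.9% of the omul list, where 29.0% of all genes were lower in peled. The shared higher set was thus below the background shares and the shared lower set above them, with no test. The 101 genes had a median of 32.3 in nature peled and 3.88, 4.30 and 5.12 in control, acute and chronic peled, beside 25.7 in nature omul and 5.49 to 6.31 in aquaculture-reared omul. The 110 genes had a median of 2.26 in nature peled and 20.2, 24.3 and 23.1 in aquaculture, beside 3.32 in nature omul and 15.4 to 18.6 in aquaculture. Opposite directions were found in 191 genes. Of these 157 were lower in nature peled and higher in nature omul, 24.8% of the lower peled genes and so near the 24.6% of all genes. The other 34 were higher in nature peled and lower in nature omul. They were 3.86% of the higher peled genes, below the 10.3% of all genes lower in omul. In the 157 genes nature peled had a median of 4.61 and nature omul of 9.56, between 25.6 to 27.8 in aquaculture-reared peled and 1.00 to 1.10 in aquaculture-reared omul. In the 34 genes the nature medians were 5.42 and 5.55, between 0.66 to 1.10 in aquaculture-reared peled and 22.0 to 24.6 in aquaculture-reared omul. In both opposite sets the aquaculture-reared libraries held the extremes, an order that the choice of opposite directions fixes in part.

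The gene with the most negative difference among these was TRINITY_DN79_c1_g2. It was at 1249 in nature peled and at 3758, 2881 and 3047 in control, acute and chronic peled. In omul it was at 1769.7 in nature and at 8.57, 0.558 and 0.264 in control, acute and chronic libraries. Nature libraries of both species were high and close to each other, and only the aquaculture-reared omul libraries were low. The nature difference was -1.36 in peled and 9.38 in omul, which differ by -10.74. Limma did not call the peled difference, and the spread it used for this gene takes in the omul values of 0.264 to 8.57. The most positive was TRINITY_DN14335_c0_g2, at 65.9 in nature peled and 1.01, 1.22 and 21.8 in control, acute and chronic peled, and at 46.8 in nature omul and 263, 232 and 294 in aquaculture-reared omul. Here the nature libraries were again alike, and the chronic library stood apart from the other aquaculture-reared peled libraries, so that the distance to the nearest was 1.55 with it and 4.92 without it. The differences of peled and omul differed by 6.30. Both genes were picked as extremes among genes that limma called, so no p-value is given.

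Genes of a single assembly component share sequence and can divide reads between them, so their directions were compared. Of the 2078 components 99 held 2 or 3 listed genes, 205 genes in all. In 57 of the 99 at least 2 genes differed by the rule. They were all higher in 30 components and all lower in 16, and in 11 a higher gene stood beside a lower one. Over all listed genes 40.3% were higher and 29.0% lower. How many opposed components these shares would give was not worked out. Ranked by the smaller of the distances of the higher and the lower gene from the nearest aquaculture-reared library, TRINITY_DN14335_c0 came first, at 1.55 and 2.32. Other components had a larger distance in a single gene, such as 3.81 beside 1.41 in TRINITY_DN14603_c1. Beside the higher TRINITY_DN14335_c0_g2, its TRINITY_DN14335_c0_g1 was at 46.8 in nature peled and at 237, 246 and 506 in control, acute and chronic peled (difference -2.70). In omul TRINITY_DN14335_c0_g1 was at 53.5 in nature and at 2.66, 1.25 and 1.64 in control, acute and chronic libraries. Each nature library thus held both genes at 46.8 to 65.9, while aquaculture-reared peled held mainly the first and aquaculture-reared omul mainly the second of the pair g1 and g2. The sum of both was 113 in nature peled and 238, 247 and 528 in the aquaculture-reared peled libraries.

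In the 11 opposed components the higher gene lay 1.19 to 4.27 log2 units above the aquaculture-reared mean and the difference of the lower gene from that mean was -3.89 to -1.21. Sums over these components differed by the rule in 6, 2 higher and 4 lower, and did not in 5. In 8 of the 11 all 3 aquaculture-reared omul libraries lay on the nature side of the midpoint for both genes. They did so for the higher gene in 10 and for the lower gene in 9. The shares over all higher and all lower genes were 63.9% and 55.5%. Summing all genes of each component left 828 higher (39.8%) and 604 lower (29.1%) among 2078 components, close to the shares of single genes.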

How the data were processed

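Poly(A) RNA libraries of pooled whole larvae were read on an Illumina NovaSeq, as the labels' protocols state. The deposited value of a gene is a normalised expression signal that is not whole and never negative, and no source used here gives its unit or scaling. Per the submitters' processing notes, the tools included Trimmomatic 0.36 and edgeR 4.0.3, whose roles are not stated. The assembler is known from the form of the identifiers alone. Low values were set against multiples of the smallest value of each library, and 16.5% to 33.3% came within 0.1 of such a multiple (20% by chance). This check recovered no reads, so depth is unknown, and no counting interval is given.

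Values were used as log2(value + 1) with no filter. The rule compares nature peled with 3 libraries and has no test. An intensity-trend fit in limma 3.58.1 under R 4.3.3 was made of all 8 libraries as 4 cells, species by origin, with 4 residual degrees of freedom, all from aquaculture-reared libraries. The prior degrees of freedom were 4.14. P-values were adjusted by Benjamini-Hochberg over the 2184 genes, with 0.05 as the threshold. The fit was tested on simulated data in which the nature libraries were given the spread of the aquaculture-reared ones. That assumption was therefore not checked. Named genes are the 2 farthest on each side by the rule that also passed limma, the 2 extremes among genes opposite in the species, and the higher and lower gene of the component in which the smaller of their distances was largest. Comparison, lists and alternatives were chosen with earlier results of these data known. The lists of species-separating genes and the midpoint and position measures were chosen after values were seen.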

Additional observations from a re-analysis of the deposited data

Results flagged for a closer look

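The nature difference itself differed between the species in 1307 of 2184 genes in limma's test of that difference, in a fit where heat states stand in for replicates. Among genes of opposite direction the largest such differences were 6.30 log2 units for TRINITY_DN14335_c0_g2 and -10.74 for TRINITY_DN79_c1_g2. In both genes the nature libraries of peled and omul were close to each other, and the aquaculture-reared libraries were far apart. Over all listed genes the median absolute log2 difference between the species was 0.57 in nature and 2.03 to 2.36 in aquaculture, over pairs of like and unlike heat states. The tested difference takes in both gaps. No group held enough libraries for a search for single outlying samples.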

How the results depend on the processing

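The 880 higher and 633 lower genes of the rule became 526 and 320 at a threshold of 2 log2 units, a stricter rule by construction. Under the other 9 alternatives the counts were 728 to 988 higher and 459 to 799 lower, within 1.5 times of the first. No gene passed in the opposite direction in any alternative that kept the genes. A changed pseudocount, a value filter, a stricter threshold or fewer libraries cannot turn a direction, so this was largely fixed in advance. Leaving out 1 aquaculture-reared peled library gave 901 to 945 higher and 660.0 to 718 lower. Fewer libraries loosen the rule, so these counts and those against the control alone could not fall. A smaller pseudocount likewise cannot lower the counts, and a larger pseudocount or a value filter cannot raise them. The share of higher genes among those that differed was 54.5% to 62.2% throughout. limma called 748 to 888 genes higher and 537 to 653 lower in peled under 10 alternatives. The difference between the species was called more positive in 515 to 758 and more negative in 570.0 to 715 genes under 12 alternatives. No named gene changed direction under the alternatives run on it, which their choice for large differences largely fixed in advance. No paired analysis was possible because each group is a single library and the labels give no replicate numbers. The nature peled library could not be left out, since each result rests on it, and an alternative for counts was not run because the values are not counts. Unknown depth limits what can be said of genes near 0.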

Other observations

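In aquaculture-reared peled 10 genes were listed at 0 in all 3 libraries, and all 10 were higher in nature by the rule, beside 40.3% of all listed genes. Such a gene cannot be lower in nature and passes at any nature value of at least 1, so the count is largely fixed in advance. Their values in nature peled were 1.30 to 237 (median 2.60). Conversely, 20 genes were listed at 0 in nature peled, and 14 of them were lower by the rule, beside 29.0% of all listed genes. A gene at 0 in nature cannot be higher there, so this direction too was fixed in advance. The 14 had control values of 1.55 to 20.7 and a median of 8.66.

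Of the 10 genes with the highest mean value in aquaculture-reared peled, 4 were lower in nature and 3 higher, beside 29.0% and 40.3% of all listed genes. Ranking by the aquaculture value favours genes lower in nature.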
